A study of Mus musculus with 6 samples.

Results

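Skeletal muscle cells make a small set of genes in very large amounts, and 10 of these were followed here as a marker of muscle tissue in RNA from the mouse cochlea: Acta1, Ckm, Tnnt3, Tnnc2, Mylpf, Myh1, Myh4, Atp2a1, Myl1 and Pvalb. They were chosen by name, as genes of the sarcomere and of muscle metabolism, from 25794 names. A transcript of the deposited table with no gene match kept its own name and is counted as a gene here. All 10 were in the table, and 9 of them reached a mean of 0.1 FPKM over the samples and were tested among 19649 genes. FPKM, the number of fragments scaled to transcript length and to sequencing depth, is a level per length, so levels of different genes can be set side by side.

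The samples were cochleae of C57BL/6 mice, a strain that loses hearing early in life, with no treatment or transgene named for either group. Tissue of 3 mice was mixed into each sample, and there were 3 samples from young mice, 1 month old, and 3 from old mice, 12 months old. The labels say that the basilar membrane was dissected out of the cochlea before RNA was taken. The cochlear genes Gjb6, which encodes a connexin of supporting cells, and Coch, which encodes cochlin, were high in all 6 samples, at 601.9 to 702.1 and 5303 to 9242 FPKM. Both belong to a list of 12 such genes, of which 1 had a mean under 1 FPKM. In the test below, 2 of the 12 were called higher with age and 1, Coch, lower, against 5.41% and 3.68% of all tested genes. Which part of the cochlea this RNA came from was not tested. P-values here measure the spread between mixed samples, and cells of a type that were lost cannot be told apart from cells that made less of an RNA.

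The sarcomere is built of thin filaments of actin and thick filaments of myosin. Troponin on the thin filament binds calcium and lets myosin pull, the myosin light chains sit on the myosin neck, and creatine kinase and the calcium pump of the sarcoplasmic reticulum keep the cycle supplied. Fast-twitch muscle also holds parvalbumin, a calcium buffer that is known from hair cells and spiral ganglion neurons of the inner ear as well. The muscles nearest to the cochlea are the tensor tympani and the stapedius of the middle ear.

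The members fell into unequal levels. Pvalb was at 163.9 FPKM or more in every sample, while each of the other 9 stayed below 8 FPKM and 6 had a mean under 1 FPKM. Without Pvalb, the members summed to 7.24, 7.31 and 3.62 FPKM in the young samples and to 21.6, 4.78 and 3.63 FPKM in the old samples. Old replicate 1 held the highest value of 8 of the 10 members, and of 20.3% of all genes above 0 in a sample. Pvalb and Myl1 did not share that pattern, so the 10 are described here as named genes and not as a measure of one tissue. The source of the RNA was not tested. With age, 0 of the 9 tested members were called higher and 2, Pvalb and Myl1, were called lower (limma on log2(FPKM + 0.1), adjusted p under 0.05 over all genes). Over all tested genes 5.41% were called higher and 3.68% lower. At an unadjusted limma p under 0.05, 1 member, Mylpf, was higher, as were 14.5% of all tested genes.

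**Figure D1:**
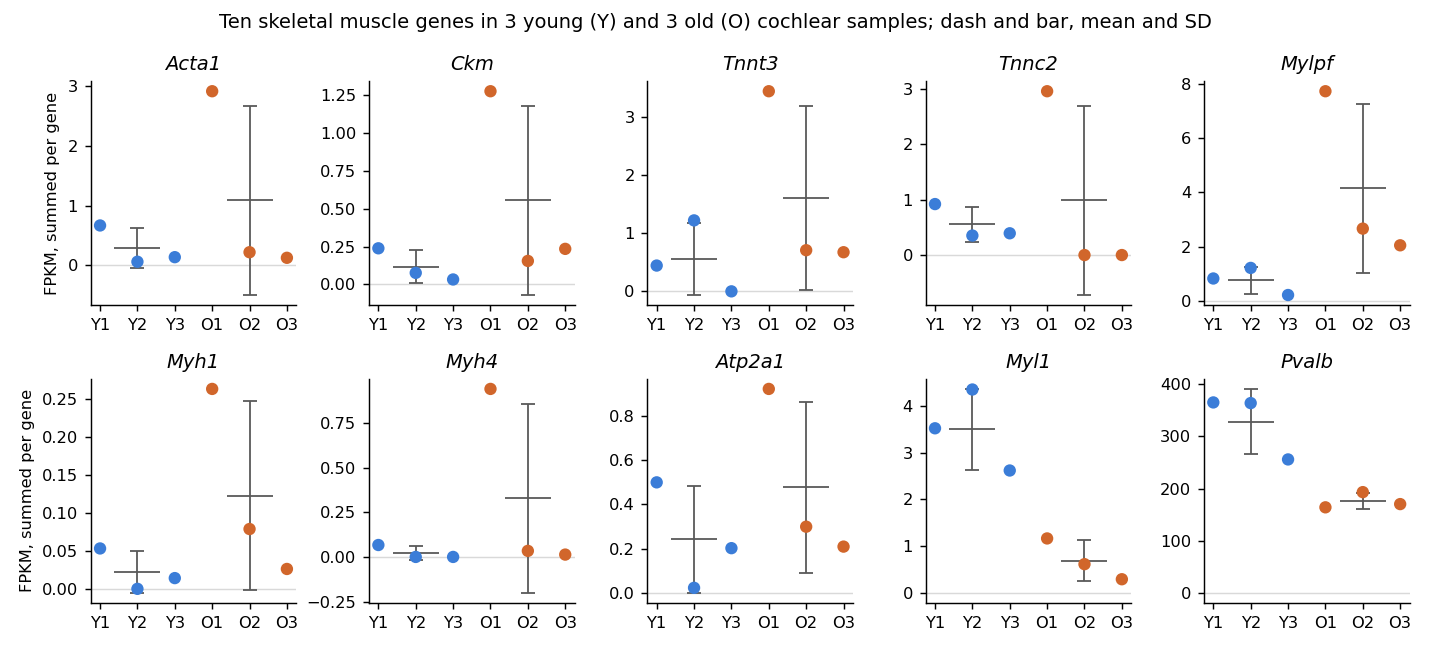
FPKM summed per gene for the 10 members, one panel each with its own axis; points are samples, Y1 to Y3 young and O1 to O3 old, and the dash and bar are the group mean and SD (n = 3). Old replicate 1 is the highest point in 8 panels, as it is for 20.3% of all genes above 0 in a sample. Myl1 and Pvalb are lower in all 3 old samples than in any young sample, as are 16.0% of all tested genes.

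The thin filament was followed by 3 members. Acta1 encodes skeletal alpha-actin (ENSMUSG00000031972, GRCm38 chr8:123891769-123894751, minus strand). It measured 0.668, 0.0623 and 0.139 FPKM in the young samples and 2.91, 0.221 and 0.128 FPKM in the old samples. Only old replicate 1 stood clear of the rest, 4.36-fold over the highest other sample, and the other 2 old samples lay within the young range. The fitted log2 change of 0.96 (SE 1.05) did not pass (limma adjusted p = 0.594), and without old replicate 1 it was -0.19.

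Tnnt3 encodes fast skeletal troponin T, which ties troponin to tropomyosin (ENSMUSG00000061723, chr7:142498836-142516009, plus strand). It was at 0.445 and 1.22 FPKM in young replicates 1 and 2, listed at 0 in young replicate 3, and its old samples held 3.45, 0.709 and 0.674 FPKM. The groups overlapped through young replicate 2, whose whole value lay on Tnnt3-220, a transcript of 342 nt that no other sample carried. Few fragments give a high FPKM on so short a transcript. The Tnnt3 transcripts of at least 500 nt rested on an estimated 0 fragments in that sample, so the overlap is uncertain. The table lists 23 Tnnt3 transcripts, of which 8 reached 0.1 FPKM in a sample and 1 did so in 2 or more samples. The log2 change of the gene was 1.65 (SE 1.00, limma adjusted p = 0.334).

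Tnnc2 encodes fast skeletal troponin C, the calcium-binding subunit (ENSMUSG00000017300, chr2:164777161-164779967, minus strand). Its values were 0.919, 0.351 and 0.392 FPKM in the young samples. Among the old samples it was at 2.95 FPKM in replicate 1 and listed at 0 in replicates 2 and 3. Both the highest and the lowest samples were therefore old, and the log2 change of -0.96 (SE 1.29, limma adjusted p = 0.668) turned to 0.044 with a pseudocount of 1 FPKM.

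The thick filament was followed by Myh4 and Myh1, the heavy chains of the fastest fibre types, IIB and IIX. Myh4 (ENSMUSG00000057003, chr11:67238029-67260446, plus strand) was at 0.0668 FPKM in young replicate 1, listed at 0 in the other 2 young samples, and then 0.942, 0.0339 and 0.0131 FPKM in the old samples. Old replicate 1 was 14.1-fold over the highest other sample, the widest such gap among the members. Its log2 change was 1.08 (SE 0.95, limma adjusted p = 0.502).

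Myh1 (ENSMUSG00000056328, chr11:67200052-67224575, plus strand) lies next to Myh4 in the myosin cluster. It was at 0.0532, 0 and 0.0141 FPKM in the young samples and 0.263, 0.0788 and 0.0262 FPKM in the old samples. Again old replicate 1 was highest, by 3.34-fold, and the groups overlapped (exact permutation test, two-sided p = 0.2). It missed the minimum level and was not tested across genes. The heavy chain genes resemble each other closely in sequence, so the split of fragments between Myh1, Myh4 and Myh2 is uncertain, as is that between Acta1 and the other actins.

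Promoters of 9 members were found among the RefSeq sequences (GRCm38.p6), each from 250 bases before to 50 bases after a start site; Pvalb has 2 such windows, and none was found for Tnnt3. Acta1 and Myh4 are printed as the members whose windows held the largest variety of the motifs searched, 5′ to 3′ on the gene's strand. Capitals mark matches on either strand to an E box (CANNTG), to TATAAA, to the MEF2 site and to the CArG box, a binding sequence of serum response factor.
Acta1, chr8:123894726-123895025, minus strand: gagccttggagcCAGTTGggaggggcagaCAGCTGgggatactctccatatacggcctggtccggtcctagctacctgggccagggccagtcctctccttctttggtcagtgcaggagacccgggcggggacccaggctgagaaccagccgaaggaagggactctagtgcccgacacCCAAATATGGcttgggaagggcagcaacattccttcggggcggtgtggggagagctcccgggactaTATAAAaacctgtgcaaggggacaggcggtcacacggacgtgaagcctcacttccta
Myh4, chr11:67237562-67237861, plus strand: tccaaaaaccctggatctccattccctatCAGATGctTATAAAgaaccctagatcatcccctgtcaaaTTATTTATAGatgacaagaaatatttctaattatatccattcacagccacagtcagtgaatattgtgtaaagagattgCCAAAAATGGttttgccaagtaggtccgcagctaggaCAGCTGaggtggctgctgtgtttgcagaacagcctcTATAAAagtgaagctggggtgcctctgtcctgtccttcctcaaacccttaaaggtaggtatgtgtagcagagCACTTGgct
These 2 were the members whose window held a CArG box, which 1.63% of all 32851 promoters held. A MEF2 site was in 3 of the 10 member windows and in 3.19% of all promoters, and TATAAA was in 4 of 10 and 13.6% of all. In Myh4, 1 TATAAA match lies inside the MEF2 site. The E box was in 8 of 10 windows, against 72.3% of all promoters. These are matches of letters and not sites of binding.

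Mylpf encodes the fast skeletal regulatory light chain (ENSMUSG00000030672, chr7:127208890-127214298, plus strand). It measured 0.831, 1.22 and 0.222 FPKM in the young samples and 7.73, 2.67 and 2.05 FPKM in the old samples. It was the one member whose 3 old samples all lay above the young samples, as they did for 17.5% of all tested genes. The log2 change of 2.29 (SE 0.65) missed the threshold (limma adjusted p = 0.0689), and the exact permutation test gave the smallest two-sided p that 3 against 3 samples allow, 0.1. Without old replicate 1 the log2 change was 1.73 (SE 0.62, limma adjusted p = 0.162).

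The RNA of Mylpf was spread over 3 transcripts. Mylpf-206 (first base chr7:127208899) was at 0.831, 0.777 and 0.222 FPKM in the young samples and 4.70, 0.975 and 0.963 FPKM in the old samples. Mylpf-201, which begins downstream at chr7:127211608, did not reach 0.1 FPKM in any young sample, whereas its old values were 3.03, 1.16 and 0.668 FPKM. The transcript from the downstream start thus reached 0.1 FPKM in the old samples alone. In the young samples the Mylpf transcripts of at least 500 nt rested on an estimated 4, 4 and 1 fragments. So few cannot show which start was used there. The log2 change of Mylpf-201 was 3.85 (SE 0.68, limma adjusted p over all transcripts = 0.0646). Its first base is the start site of the RefSeq window, which is printed for that reason; the single capital run is an E box.
Mylpf, chr7:127211358-127211657, plus strand: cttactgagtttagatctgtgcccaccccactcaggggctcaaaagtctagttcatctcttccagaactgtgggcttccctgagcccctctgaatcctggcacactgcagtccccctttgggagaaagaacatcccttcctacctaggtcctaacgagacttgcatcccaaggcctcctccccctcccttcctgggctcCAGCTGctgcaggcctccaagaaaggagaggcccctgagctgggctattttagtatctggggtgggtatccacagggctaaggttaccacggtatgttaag
Of the 17 member transcripts tested, 0 were called in either direction, where 0.549% of all transcripts were called higher and 0.199% lower. At an unadjusted limma p under 0.05, 3 of the 17 passed. The share of all transcripts at that threshold was not taken, so this count has nothing to be set against.

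**Figure D2:**
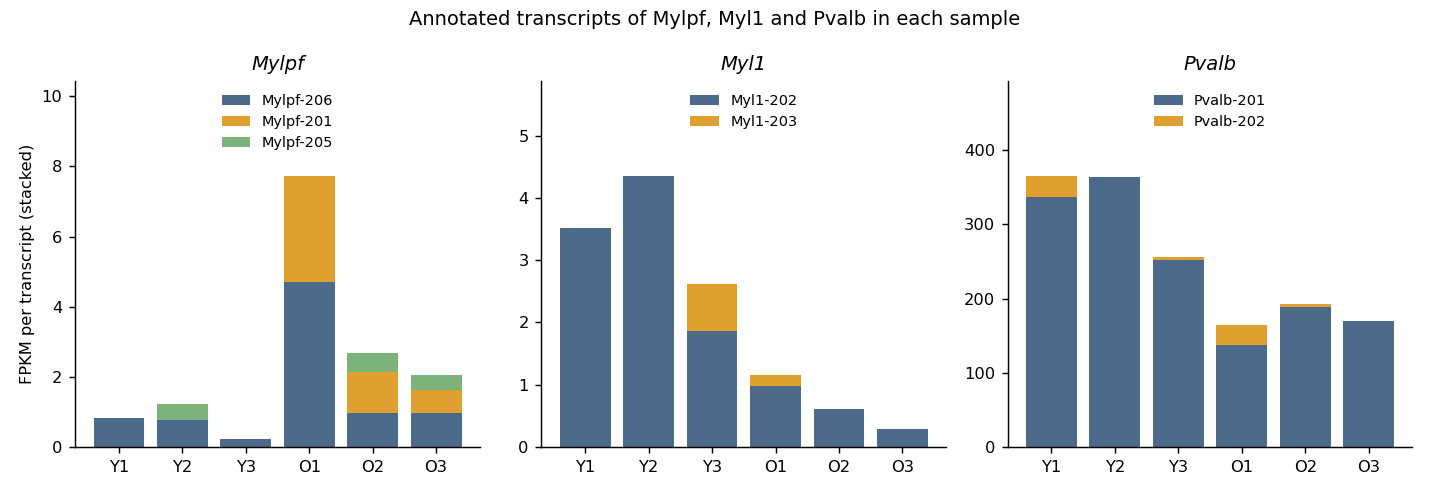
FPKM of each annotated transcript that reached 0.1 FPKM in a sample, stacked by gene for Mylpf, Myl1 and Pvalb in the 3 young (Y) and 3 old (O) samples. Mylpf-201 has a visible segment in the old samples alone, Myl1-202 is the largest segment of Myl1 in every sample, at 71.1% or more, and Pvalb-201 that of Pvalb, at 83.7% or more.

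Ckm encodes the muscle form of creatine kinase, which restores ATP from phosphocreatine (ENSMUSG00000030399, chr7:19404776-19422841, plus strand). It was at 0.239, 0.0763 and 0.0326 FPKM in the young samples and 1.28, 0.155 and 0.235 FPKM in the old samples. Old replicate 1 was 5.35-fold over the highest other sample, and both remaining old samples lay below young replicate 1. The log2 change was 1.30 (SE 0.75, limma adjusted p = 0.310).

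Atp2a1 encodes SERCA1, the calcium pump of fast fibres (ENSMUSG00000030730, chr7:126445858-126463108, minus strand). It measured 0.499, 0.0226 and 0.202 FPKM in the young samples and 0.922, 0.299 and 0.209 FPKM in the old samples. Old replicate 1 was again highest, by 1.85-fold over young replicate 1, the smallest gap among the 8 members that peaked there. The log2 change was 0.83 (SE 0.73, limma adjusted p = 0.499). Part of the young values, 38.6% in replicate 1 and 85.6% in replicate 3, lay on the short 3′ transcript Atp2a1-202, which was at 0 in the old samples. The whole gene rested on an estimated 14 and 2 fragments in these 2 young samples, so the shares are uncertain.

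**Figure D3:**
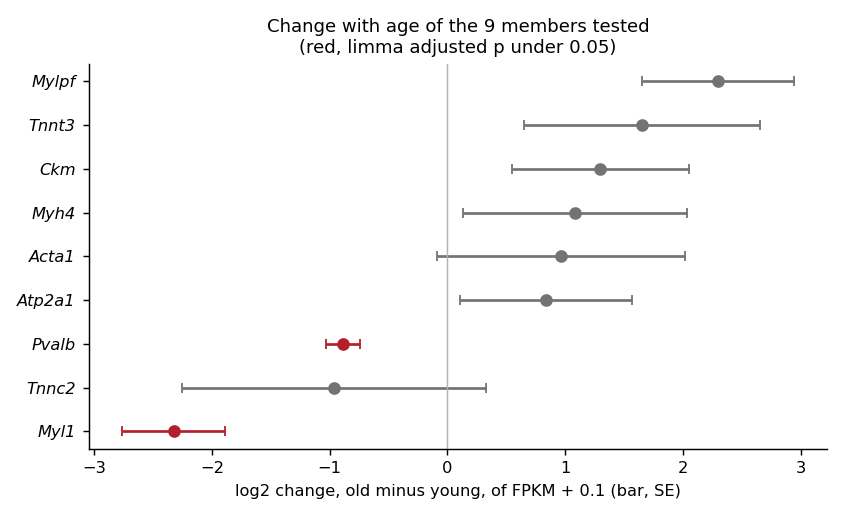
Log2 change of FPKM + 0.1, old minus young, for the 9 members tested (3 samples a group), with bars of 1 SE; members called at a limma adjusted p under 0.05 are red. Pvalb and Myl1 are the 2 called, both lower, and the widest bars belong to Tnnc2, Acta1 and Tnnt3.

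Myl1 went the other way. It encodes the fast skeletal essential light chains, of which muscle makes a long form from an upstream start and a short form from an internal one (ENSMUSG00000061816, chr1:66924295-66945404, minus strand). It was at 3.52, 4.35 and 2.62 FPKM in the young samples and 1.16, 0.612 and 0.289 FPKM in the old samples, a mean of 3.50 ± 0.868 against 0.688 ± 0.442 (SD, n = 3). Every old sample lay below every young sample, which was so for 16.0% of all tested genes. The log2 change was -2.32 (SE 0.44, limma adjusted p = 0.0265). The call was lost without young replicate 1 (limma adjusted p = 0.0672), young replicate 2 (0.0885), old replicate 2 (0.0901) or old replicate 3 (0.0557).

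All of the Myl1 values lay on transcripts that begin at the internal start, and the 2 transcripts from the upstream start, Myl1-201 and Myl1-206, were below 0.1 FPKM in all 6 samples. Myl1-202 (first base chr1:66935354) was at 3.52, 4.35 and 1.86 FPKM in the young samples and 0.981, 0.612 and 0.289 FPKM in the old samples. Taken alone it did not pass over all transcripts (log2 change -2.24, SE 0.51, limma adjusted p = 0.0927). The RefSeq window at the upstream start is printed as that of the start with no transcript above this level.
Myl1, chr1:66945007-66945306, minus strand: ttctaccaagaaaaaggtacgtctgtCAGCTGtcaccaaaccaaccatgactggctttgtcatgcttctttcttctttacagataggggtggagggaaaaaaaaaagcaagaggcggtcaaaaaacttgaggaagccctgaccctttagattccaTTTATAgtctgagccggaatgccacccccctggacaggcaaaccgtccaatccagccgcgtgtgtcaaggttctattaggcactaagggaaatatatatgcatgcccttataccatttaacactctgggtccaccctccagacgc
It holds 1 E box and, in reverse, 1 TATAAA match.

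Pvalb encodes parvalbumin (ENSMUSG00000005716, chr15:78191114-78206400, minus strand). It measured 365.3, 364.1 and 255.9 FPKM in the young samples and 163.9, 193.1 and 170.2 FPKM in the old samples, a mean of 328.4 ± 62.8 against 175.7 ± 15.4 (SD, n = 3). The old samples lay close together and all below the lowest young sample, young replicate 3. All old samples lay below all young samples for 16.0% of all tested genes. The log2 change was -0.89 (SE 0.15, limma adjusted p = 0.0207). The call was lost when any 1 sample other than young replicate 3 was left out. Leaving out young replicate 1 gave a limma adjusted p of 0.0503, and young replicate 2 gave 0.0631. Old replicates 1, 2 and 3 gave 0.0643, 0.0638 and 0.0645. The log2 change stayed between -1.06 and -0.80 over the 6 fits. Pvalb was lowest in old replicate 1, the sample in which 8 of the other 9 members had their highest value.

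Both annotated starts of Pvalb carried RNA. Pvalb-201 (first base chr15:78204237) was at 336.8, 364.1 and 252.5 FPKM in the young samples and 137.2, 188.2 and 170.1 FPKM in the old samples. It carried 83.7% or more of the gene in every sample, and its log2 change was -0.94 (SE 0.17, limma adjusted p over all transcripts = 0.0656). Pvalb-202, from the upstream start at chr15:78206400, was at 28.5, 0.00538 and 3.42 FPKM in the young samples and 26.7, 4.95 and 0.00448 FPKM in the old samples. It was high in replicate 1 of both groups and near 0 in 1 sample of each, so its spread within a group exceeded any difference between the ages (log2 change 0.14, SE 2.60, limma adjusted p = 0.988). The windows at both starts are printed to show how the rarely and the mainly used start differ in letters.
Pvalb upstream start, chr15:78206351-78206650, minus strand: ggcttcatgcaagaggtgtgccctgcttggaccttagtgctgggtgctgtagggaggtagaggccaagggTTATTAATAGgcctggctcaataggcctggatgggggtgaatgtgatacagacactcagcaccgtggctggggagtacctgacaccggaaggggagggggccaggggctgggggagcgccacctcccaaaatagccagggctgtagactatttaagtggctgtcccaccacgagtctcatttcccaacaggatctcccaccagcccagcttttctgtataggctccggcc
Pvalb downstream start, chr15:78204188-78204487, minus strand: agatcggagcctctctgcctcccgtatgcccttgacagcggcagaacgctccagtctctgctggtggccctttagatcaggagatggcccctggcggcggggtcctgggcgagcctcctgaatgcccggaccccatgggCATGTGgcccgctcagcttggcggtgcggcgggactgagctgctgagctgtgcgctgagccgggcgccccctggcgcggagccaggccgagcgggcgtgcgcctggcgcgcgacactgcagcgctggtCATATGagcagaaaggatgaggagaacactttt
The upstream window holds a MEF2 site and no E box, and the downstream window holds 2 E boxes and no MEF2 site. Neither holds TATAAA or a CArG box.

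Genes of hair cells and neurons of the cochlea were read beside Pvalb. Of 12 such genes, 8 were called lower in the old samples and 0 higher, against 3.68% and 5.41% of all tested genes. Their median log2 change was -1.03 against 0.01 over all tested genes, and none of the 12 was at 0 in a sample. Their summed level was 1027 to 1565 FPKM in the young samples and 590.2 to 678.8 FPKM in the old samples. The part of these cells in the Pvalb result was not tested.

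Calb2, which encodes the related calcium buffer calretinin, was at 702.6 ± 175.8 FPKM in the young and 319.0 ± 25.6 FPKM in the old samples (SD, n = 3; log2 change -1.11, SE 0.18, limma adjusted p = 0.0207). Ocm, which encodes oncomodulin, a parvalbumin of outer hair cells, was at 135.2 ± 41.0 and 58.4 ± 11.4 FPKM (log2 change -1.18, SE 0.24, limma adjusted p = 0.0297). The neurofilament genes Nefl, Nefm and Nefh had log2 changes of -1.07, -1.30 and -1.01. Slc26a5, which encodes the outer hair cell motor prestin, Slc17a7, a vesicular glutamate transporter, and Tubb3, a neuronal tubulin, were the other 3 called lower. The remaining 4 did not pass and differed in direction. Calb1, the calcium buffer calbindin, was at 1.83, 1.63 and 1.14 FPKM in the young samples, below 3.23, 2.23 and 2.54 FPKM in the old samples (log2 change 0.77, SE 0.25, limma adjusted p = 0.0970). The hair cell genes Myo7a, Otof and Slc17a8, which encode an unconventional myosin, otoferlin and a vesicular glutamate transporter, had log2 changes of 0.0018, -0.33 and -0.47 (limma adjusted p = 0.997, 0.237 and 0.0723). As for Pvalb, most fits with 1 sample left out lost calls. Leaving out young replicate 3 kept 8 of the 12 called, young replicate 2 kept 3 and young replicate 1 kept 1. Leaving out any one of the old replicates kept 0. The log2 changes moved less, between -1.33 and -0.96 for Calb2 and between -1.33 and -0.88 for Nefl. Over all tested genes 1063 higher and 724 lower became 44 and 15 with old replicate 2 dropped, and 935 and 821 with young replicate 3 dropped. The loss was thus not particular to these genes, and its cause was not tested.

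**Figure D4:**
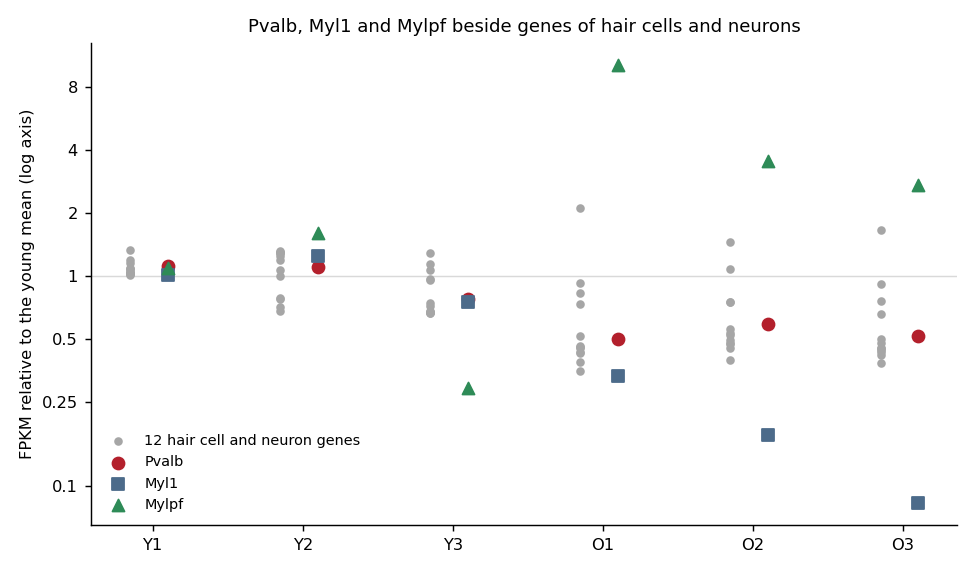
FPKM of Pvalb, Myl1 and Mylpf in each sample divided by the gene's mean over the 3 young samples, on a log axis, beside 12 genes of hair cells and neurons (grey). In the old samples (O) Pvalb lies among most of the grey points, Myl1 below them and Mylpf above them.

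A wider set of 87 skeletal muscle genes in 7 lists was read beside the members. Of these, 63 were tested, and 3 were called higher and 1 lower, with a median log2 change of 0.07 against 0.01 over all tested genes. These counts were no larger a share than the 5.41% higher and 3.68% lower of all tested genes. Most of the set was low, with 44 of 87 genes at a mean under 1 FPKM. The lists of excitation-contraction coupling (12 tested), developmental myosins (1 tested), the neuromuscular junction (5 tested) and myogenic regulators (4 tested) had 0 called in either direction. At an unadjusted limma p under 0.05, 12 of the 63 were higher and 5 lower, against 14.5% and 13.0% of all tested genes.

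The 4 genes called are given as values and not as a result about muscle genes. They were not low, and none had its highest value in old replicate 1 by as much as 2-fold. Tcap, which encodes the titin cap of the Z disc, was at 29.2, 24.5 and 22.4 FPKM in the young and 36.5, 63.2 and 48.3 FPKM in the old samples (log2 change 0.93, SE 0.20, limma adjusted p = 0.0334). Tpm3, a tropomyosin that is also made outside muscle, was at 61.6 ± 2.57 and 80.6 ± 4.24 FPKM (SD, n = 3; log2 change 0.39, SE 0.07, limma adjusted p = 0.0233). Car3, a carbonic anhydrase of slow muscle and fat, was at 405.2 ± 71.3 and 896.3 ± 129.4 FPKM (log2 change 1.15, SE 0.15, limma adjusted p = 0.0127). Pfkm, the muscle-type phosphofructokinase, fell from 123.3 ± 12.9 to 94.2 ± 4.23 FPKM (log2 change -0.38, SE 0.09, limma adjusted p = 0.0403). Car3 lost its call without old replicate 2 (limma adjusted p = 0.0572). Tcap kept its call in 1 of the 6 fits with a sample left out, without old replicate 1 (limma adjusted p = 0.0441), and Tpm3 and Pfkm in 1 each, without young replicate 3 (0.0386 and 0.0211).

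The sample with the highest member values was described gene by gene. Of all 10 members, with no filter on level, 8 were highest in old replicate 1 and 7 stood at least 2-fold over every other sample. Among all 22673 genes above 0 in a sample the shares were 20.3% and 2.94%, among tested genes 20.2% and 1.76%, and among tested genes with a mean under 3 FPKM 23.6% and 4.37%. Myh4 reached the minimum level for the test through old replicate 1 alone. The 8 members other than Pvalb and Myl1 summed to 20.4 FPKM in old replicate 1 and to between 1.00 and 4.17 FPKM in the other 5 samples; this sum was formed after the values were seen and is a description.

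The depth behind these values was small. The steps between low FPKM values gave about 12570000 to 15670000 fragments per sample. The depth was chosen as the one that best matched whole fragments. At it 92.4% to 93.3% of the low values used came within 0.1 of a whole fragment. A depth fixed beforehand would give 20% by chance and a chosen one more, so these shares are not a test. On this scale Myh4 in old replicate 1 rested on 68 fragments, Mylpf on 39, Atp2a1 on 37, Acta1 on 33, Tnnt3 on 32, Ckm on 24, Myh1 on 19 and Tnnc2 on 15. In the other 5 samples each of these 8 genes rested on 15 fragments or fewer. Myl1 rested on 15 to 31 fragments in the young samples and 2 to 7 in the old samples, and Pvalb on 1395 to 3443. These are estimates from the FPKM values and cover transcripts of at least 500 nt.

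Of the 63 tested genes of the wider muscle set, 12 were highest in old replicate 1, a share no larger than the 20.2% of all tested genes. Of the 63, 4 stood at least 2-fold over every other sample. That held for 1.76% of all tested genes and 4.37% of those with a mean under 3 FPKM. These 4 and the other genes named in this paragraph were picked after their values were seen. Myh2, the heavy chain of type IIA fibres, was at 0.835 FPKM in old replicate 1 and at 0.0222 FPKM or less elsewhere, and reached the minimum level through that sample alone. Tnni2, fast troponin I, was at 4.72 FPKM against 0.745 FPKM or less. Myl2, the slow regulatory light chain, was at 1.74 FPKM against 0.216 FPKM or less, and Mb, myoglobin, at 2.27 FPKM against 0.930 FPKM or less. Some genes of the lists were at or near 0 in every sample. Myod1 and Mymk, which drive muscle formation and fusion, and Sln, which encodes sarcolipin, were listed at 0 in all 6. The developmental myosins Myh3 and Myh8 did not exceed 0.0246 FPKM. Others below the minimum level peaked in old replicate 1. Csrp3 was at 0.547 FPKM and Ampd1 at 0.116 FPKM there, both listed at 0 elsewhere, and Ryr1 at 0.126 FPKM against 0.0249 FPKM or less.

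**Figure D5:**
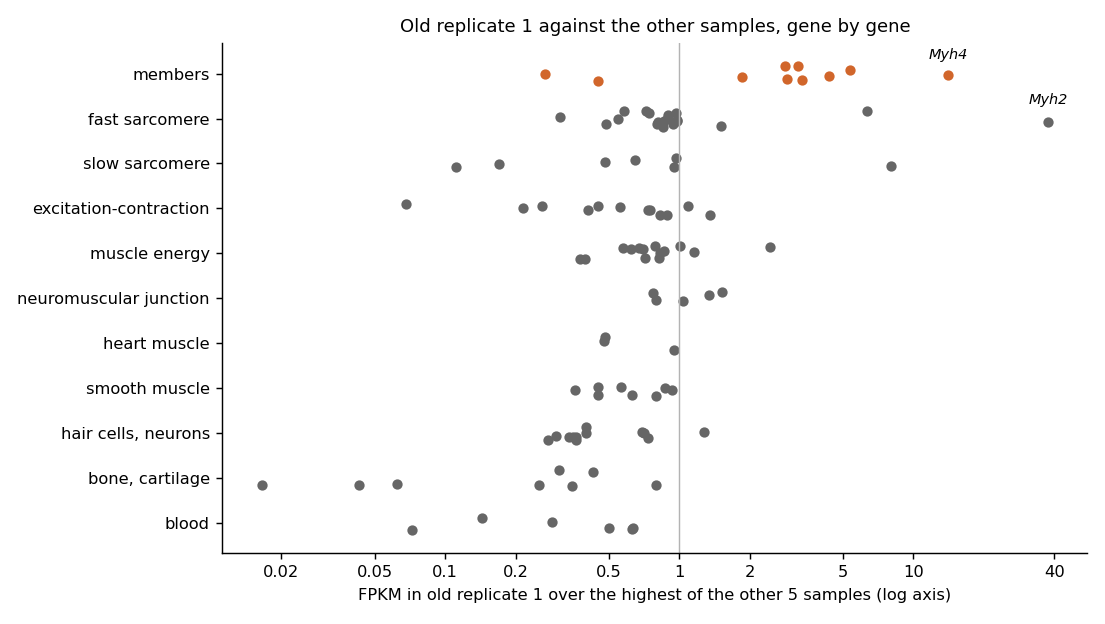
FPKM in old replicate 1 divided by the highest of the other 5 samples, one point a gene on a log axis. Members are orange, and genes of the other lists shown, with a mean of at least 0.1 FPKM, are grey. Genes at 0 in old replicate 1 are left out. The lists of developmental myosins, myogenic regulators, cochlear epithelium, and fat and tendon are not drawn. The 8 members other than Pvalb and Myl1 lie to the right of 1, up to 14.1 for Myh4, and the farthest grey point is Myh2 at 37.6.

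Markers of other tissues were read in the same way. Of 55 tested genes in 7 lists of heart, smooth muscle, hair cells and neurons, cochlear epithelium, bone and cartilage, fat and tendon, and blood, 7 were highest in old replicate 1 and 0 were at least 2-fold over every other sample. Bone and cartilage genes summed to 69.6 FPKM there, 82.2 and 83.1 FPKM in the other old samples, and 114.5 to 355.3 FPKM in the young samples. Blood genes summed to 1369 FPKM there and 1407 to 2951 FPKM elsewhere. Both sums were lowest in old replicate 1, and their part in the member values was not tested.

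With age, 4 of these 55 genes were called higher and 15 lower, against 5.41% and 3.68% of all tested genes. Tnnt2, the cardiac form of troponin T, was at 2.04, 1.71 and 2.98 FPKM in the young and 12.6, 11.6 and 13.3 FPKM in the old samples (log2 change 2.46, SE 0.20, limma adjusted p = 0.00528). Unlike the fast troponins among the members it was even across the old samples, and its call held with any 1 sample left out (limma adjusted p 0.0046 to 0.0379). Acta2, the smooth muscle actin, was at 8.94 ± 2.70 FPKM in the young and 4.23 ± 0.665 FPKM in the old samples (SD, n = 3; log2 change -1.03, SE 0.22, limma adjusted p = 0.0356), lost with any 1 sample left out other than young replicate 3 (0.0357). Tnmd, a tendon gene, was at 6.37, 5.56 and 5.43 FPKM and then 2.93, 1.31 and 1.60 FPKM (log2 change -1.60, SE 0.28, limma adjusted p = 0.0240), kept without young replicate 3 (0.0383) or old replicate 1 (0.0278) and lost without any 1 of the other samples.

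The genes with a pattern most like the members were sought over the 6 samples, among 15070 other genes with a mean of at least 1 FPKM. The measure was the root mean square difference of centred log2 values from the median of the members, for which a gene that does not vary at all scored 0.986. Tstd1 was nearest at 0.255, then Nckap5l at 0.336, the listed noncoding transcript LNC_000229 at 0.377, Zfp629 at 0.396, LNC_000979 at 0.410, Rpp40 at 0.428, Lca5 at 0.442, Pou2f1 at 0.444, Wnk1 at 0.449 and Mms22l at 0.466. None of the 10 was in a muscle list. All 10 were highest in old replicate 1, which follows from the ranking. The median of the members was 2.20 there and 0.366 or less in the other samples. The minimum of 1 FPKM kept 44 of the 87 genes of the wider muscle set out of the ranking, among them Myh2, Tnni2 and Myl2. The lack of muscle genes among the 10 can therefore not be read as a result. Wnk1, a kinase that controls ion transport, was at 199.8 FPKM there and 68.6 FPKM or less in the other samples, and Zfp629, a zinc finger gene, at 46.9 FPKM against 12.8 FPKM or less. Genes with a peak in old replicate 1 thus exist outside the muscle lists, but these were picked for it. Over 6 samples likeness is a description.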

How the data were processed

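RNA from the cochlea of 3 young and 3 old samples was sequenced by the authors as directional paired-end libraries. Per the submitters' processing notes they used CASAVA 1.8, TopHat2 2.0.9, Cufflinks 2.1.1, Cuffdiff 2.1.1 and the GRCm38 build. The deposited table holds FPKM for 56671 transcripts, computed by the authors and already scaled to depth and length. Such values smooth over how few fragments lie behind a low gene.

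FPKM of 55275 of 55679 Ensembl transcripts matched to GENCODE names were summed per gene. The other transcripts, among them 992 with LNC names, were each treated as a gene. Genes with a mean of at least 0.1 FPKM were tested as log2(FPKM + 0.1) with limma 3.58.1 (R 4.3.3; lmFit, eBayes with a variance trend), two-sided, with Benjamini-Hochberg adjustment over all genes, since the study's Cuffdiff test needs reads. A fold change on this scale understates the change of low genes. Transcripts were tested in the same way. The method was tested on simulated data. Figures used Python 3.11.15 and matplotlib 3.10.9.

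The members and lists were chosen with earlier results of these data known. Named were the members, member transcripts with a mean of at least 1 FPKM, at most 4 of the highest genes and any called gene of each other list, and the 10 genes of most like pattern; other named transcripts and genes were chosen after their values were seen. Replicate numbers did not pair the samples. The alternatives were other pseudocounts, filters, scalings and weights, a replicate block, the most abundant transcript per gene, and each sample left out.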

Additional observations from a re-analysis of the deposited data

How the results depend on the processing

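Of the 9 tested members, 0 were called higher under every alternative with an adjusted p, and 1 at an unadjusted p. The count called lower, 2 as reported, was 0 with no filter on low values and 0 without the variance trend, and 0 to 2 with one sample left out: 0 without young replicate 1, young replicate 2, old replicate 2 or old replicate 3, and 1 without old replicate 1. Over 16 alternatives Pvalb passed in 9 (log2 change -1.06 to -0.80, adjusted p 0.00531 to 0.0864) and Myl1 in 10 (-2.74 to -1.43, adjusted p 0.0164 to 0.1003), both always lower. Mylpf was higher and missed the threshold in all 16 (adjusted p 0.0549 to 0.243). The fitted sign turned for Acta1 without old replicate 1 (-0.19, adjusted p 0.906; -0.19 to 1.67 over the samples left out) and for Tnnc2 with a pseudocount of 1 FPKM (0.044, adjusted p 0.968). The sum of the members in old replicate 1 over the highest other sample was 0.498, and 2.96 without Pvalb. The cause of these changes was not tested, beyond Pvalb being most of the sum.

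Among the other skeletal muscle genes, 3 were called higher and 1 lower as reported. With no filter the counts were 0 and 0, without the trend 1 and 0, at an unadjusted p 12 and 5, and with array weights 5 were higher. With one sample left out 0 to 2 were higher and 0 to 1 lower. Among genes of other cell types, 4 higher and 15 lower became 1 and 1 with no filter, 1 and 3 without the trend, and 8 and 25 at an unadjusted p, and 2 were higher with the most abundant transcript alone. With one sample left out 1 to 4 were higher and 1 to 14 lower. Of the member transcripts, 0 were called higher and 0 lower, and at an unadjusted p 1 and 2, where the share of all transcripts was not taken. With one sample left out 0 were higher and 0 to 1 lower, the 1 being without young replicate 3. Over all genes 1063 were called higher and 724 lower, against 206 and 101 with no filter, 271 and 121 without the trend, and 44 to 935 and 15 to 821 with one sample left out.

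The replicate number is shared by the groups, and the main fit did not pair samples by it. Deviations of same-numbered samples correlated at 0.03, -0.10 and 0.04 over 15074 genes. Pvalb-202 was high in replicate 1 of both groups, and whether same-numbered samples shared a handling step was not tested. A replicate block lowered the SE of every tested member, for Acta1 from 1.05 to 0.55 and for Tnnc2 from 1.29 to 0.88. With the replicate block 0 members were higher and 2 lower, 1 other muscle gene was higher and 0 lower, 2 genes of other cell types were higher, and over all genes 410 were higher and 265 lower.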
